A study of Mus musculus with 8 samples.

Results

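Mast cells are recognised by a small set of transcripts, and 10 of these genes are described here in the mouse uterus: the protease genes *Cpa3*, *Cma1*, *Mcpt4*, *Tpsb2*, *Tpsab1* and *Mcpt2*, the IgE receptor genes *Fcer1a* and *Ms4a2*, the stem cell factor receptor gene *Kit* and the histamine-forming enzyme gene *Hdc*. They were picked by symbol, as mast cell genes, from the 27179 genes counted, with the difference between the genotypes already in view. Their differences between genotypes are therefore given as values with errors and without a p-value. Which of them passed thresholds is given only as a description. Of the 10 genes, 8 were among the 16658 genes with enough counts to be tested, and *Fcer1a* and *Ms4a2* were not.

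RNA-seq was performed on whole uteri of 8 mice at postnatal day 10 (PD10), with 4 control and 4 *Ezh2 Amhr2*-Cre cKO mice and 1 library per mouse. Control mice were *Ezh2* f/f, carrying the floxed allele of the histone methyltransferase gene *Ezh2* without Cre, and cKO mice were *Ezh2* f/f with *Amhr2*-Cre (Acre), so both groups share the floxed allele. *Amhr2*-Cre acts in cells derived from the mesenchyme of the reproductive tract, and a whole uterus also holds cells that do not express it. The mice were kept on a mixed C57BL/6 and 129SvEv background. The question asked of these genes was whether transcripts of this immune cell differ between control and cKO uteri when glands are forming.

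Mast cells reach tissues as precursors and mature there under the influence of KIT and its ligand. Their granules hold histamine bound to heparin on the serglycin core protein, together with chymases, tryptases and carboxypeptidase A3, which are released when IgE bound to its high-affinity receptor is crosslinked. In mice, connective tissue mast cells are known for the chymases encoded by *Cma1* and *Mcpt4*, the tryptases and *Cpa3*, whereas mucosal mast cells are known for *Mcpt1* and *Mcpt2*, and mast cells are normal residents of the uterine wall.

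The libraries held 25287141 to 36685807 counts, and 3 counts, taken as the most that a gene seen in no read could hold, corresponded to 0.0824 to 0.117 CPM (counts scaled to library size with edgeR's TMM factors). *Ezh2* itself averaged 45.0 CPM in controls and 36.8 CPM in the cKO group, with a log2 fold change of -0.29 (standard error, SE, 0.13, edgeR adjusted p = 0.247), in counts that cover the whole gene and all cells of the organ. All 10 uterine markers examined had counts in every library, with sums of 7045 to 8782 CPM in control and 7601 to 8136 CPM in cKO libraries that *Acta2* dominated. By edgeR, 3 of them fell without overlap, namely *Foxa2* (log2 fold change -2.91, adjusted p = 0.000241, with 3 to 11 counts per cKO library), *Hoxa10* (-0.62, adjusted p = 0.000377) and *Hoxa11* (-0.49, adjusted p = 0.00522). Over all genes tested, 2.71% fell with an adjusted p under 0.05 by edgeR, and 6.43% were lower in cKO without overlap. Fat markers summed to 109, 239 and 113 CPM in cKO replicates 1 to 3, against 10.9 to 14.4 CPM in the controls and 12.2 CPM in cKO replicate 4.

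The connective tissue proteases *Cpa3*, *Cma1*, *Mcpt4* and *Tpsb2* and the mucosal protease *Mcpt2* had higher means in cKO than in control uteri, the tryptase gene *Tpsab1* and *Hdc* had lower means, and *Kit* was at about the same level in both. The log2 fold changes of the 8 genes tested had a median of 1.09, against 0.00044 over all genes tested, with 5 of the 8 higher and 3 lower in mean. By edgeR, 1 gene, *Mcpt2*, passed both an adjusted p under 0.05 and a fold change over 2, as did 1.3% of all genes tested. DESeq2 placed 3 members past these thresholds (*Mcpt2*, *Mcpt4* and *Hdc*) with 1.58% of all genes, limma-voom placed 4 (those and *Cma1*) with 1.22%, and edgeR with robust = FALSE placed 2 (*Mcpt2* and *Hdc*) with 1.4%. The 4 libraries of each genotype did not overlap for 2 of the 8 genes, *Cma1* and *Mcpt2*, as for 12.3% of all genes tested. Both were higher in cKO uteri, as were 5.9% of all genes, and no member was lower in cKO without overlap, as were 6.43%. These counts describe the genes chosen and support nothing further, because *Mcpt2* entered the test only through its level in the cKO libraries. In whole tissue, fewer cells of a type and less RNA per cell cannot be told apart.

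**Figure D1:**
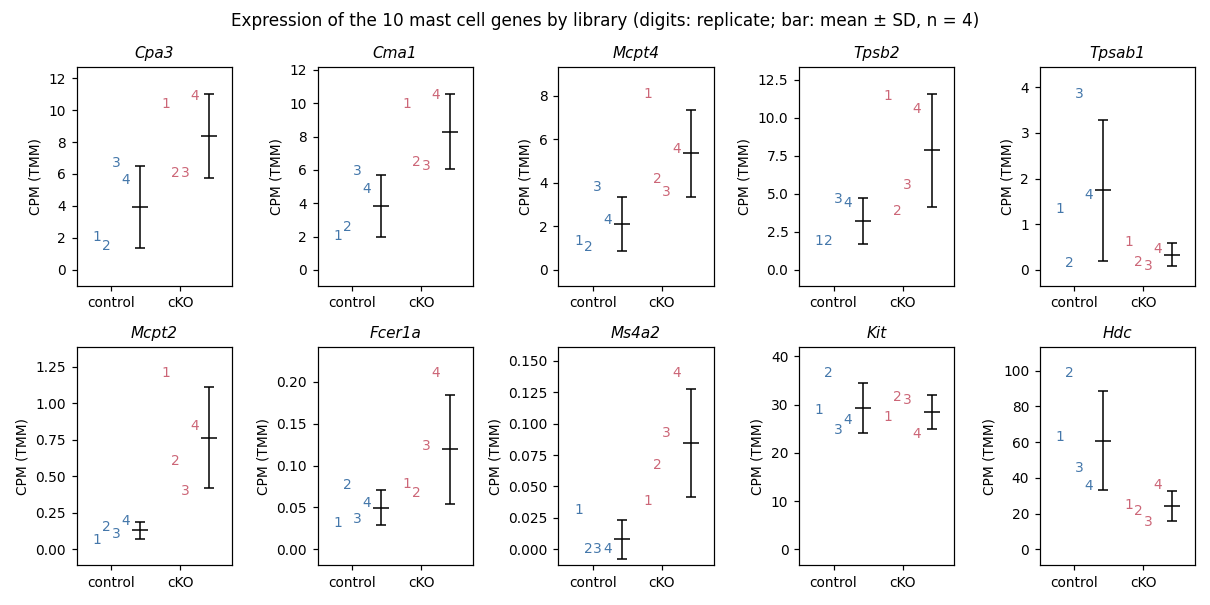
CPM (vertical axes, each with its own linear scale) of the 10 mast cell genes in control and cKO uteri, with each digit marking 1 library by its replicate number and bars giving the mean ± SD of 4 mice. The points of *Cma1*, *Mcpt2* and, at 0 to 4 counts per library, *Ms4a2* are separated between genotypes, those of *Cpa3*, *Mcpt4*, *Tpsb2*, *Tpsab1*, *Kit* and *Hdc* overlap, and *Fcer1a* and *Ms4a2* lie at 0.210 CPM or lower in every library.

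Among the chymases, *Cma1* (Entrez 17228, chr14:55941451-55944675 of GRCm38), which encodes the mouse chymase mMCP-5, was at 2.02, 2.55, 5.92 and 4.83 CPM in control replicates 1 to 4 and at 9.98, 6.46, 6.22 and 10.5 CPM in cKO replicates 1 to 4. Every cKO library lay above every control library, although the highest control, replicate 3, came close to the lowest cKO, replicate 3. The means were 3.83 ± 1.85 CPM (SD, n = 4) and 8.29 ± 2.27 CPM (SD, n = 4), a log2 fold change of 1.11 (SE 0.33).

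*Mcpt4* (Entrez 17227, chr14:56059744-56062310), the chymase of connective tissue mast cells that acts most like human chymase, was at 1.32, 1.04, 3.78 and 2.31 CPM in controls and at 8.08, 4.18, 3.57 and 5.53 CPM in cKO uteri. Control replicate 3 was above cKO replicate 3, so the genotypes overlapped. With means of 2.11 ± 1.24 and 5.34 ± 2.00 CPM (SD, n = 4 each), the log2 fold change was 1.33 (SE 0.39).

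*Cpa3* (Entrez 12873, chr3:20215616-20242209), the gene of mast cell carboxypeptidase A3, was at 2.05, 1.47, 6.67 and 5.60 CPM in controls and at 10.4, 6.09, 6.07 and 10.9 CPM in cKO uteri. Control replicates 1 and 2 were low, whereas control replicate 3 exceeded cKO replicates 2 and 3. Means of 3.95 ± 2.57 and 8.37 ± 2.65 CPM (SD, n = 4 each) corresponded to a log2 fold change of 1.07 (SE 0.47).

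*Tpsb2* (Entrez 17229, chr17:25366308-25368096), which encodes the tryptase mMCP-6, was at 1.89, 1.90, 4.67 and 4.37 CPM in controls and at 11.4, 3.85, 5.58 and 10.6 CPM in cKO uteri. The 2 highest values belonged to cKO replicates 1 and 4, and cKO replicate 2 lay below control replicates 3 and 4. Its means of 3.21 ± 1.52 and 7.85 ± 3.71 CPM (SD, n = 4 each) gave a log2 fold change of 1.28 (SE 0.43).

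These 4 proteases varied together from mouse to mouse within a genotype. Their summed level was 7.29, 6.96, 21.0 and 17.1 CPM in control replicates 1 to 4 and 39.9, 20.6, 21.4 and 37.5 CPM in cKO replicates 1 to 4. Control replicates 3 and 4 were thus near cKO replicates 2 and 3, and each genotype held 2 lower and 2 higher libraries. With the genotype means removed, Pearson's r of log2(CPM + 0.1) over the 8 libraries lay between 0.864 and 0.941 for the 6 pairs, a description that rests on this split and on libraries shared by all pairs. The highest control exceeded the lowest by 2.47-fold for *Tpsb2* up to 4.54-fold for *Cpa3*, and for each of the 4 genes this was as much as the ratio of the genotype means, which lay between 2.12 for *Cpa3* and 2.53 for *Mcpt4*.

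Their balance was alike in both genotypes. Of the counts of *Cma1* and *Mcpt4* together, *Mcpt4* took 29.0% to 39.6% in control and 34.5% to 44.7% in cKO libraries. *Cpa3* took 36.5% to 53.7% of the counts of *Cpa3* and *Cma1* in control and 48.5% to 51.0% in cKO libraries, and *Tpsb2* took 42.6% to 48.4% and 37.3% to 53.4% of the counts of *Tpsb2* and *Cma1*. All 3 ranges overlapped between genotypes.

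The start regions of *Cpa3*, *Cma1* and *Mcpt4* are shown because the data bear on genes that moved together, with that of *Hdc* as the member with another pattern. Each window runs from 250 bases before to 50 bases after the transcript start (RefSeq, GRCm38.p6), 5′ to 3′ on the gene's strand, at chr3:20242132-20242431 (minus strand) for *Cpa3*, chr14:55944626-55944925 (minus strand) for *Cma1*, chr14:56062261-56062560 (minus strand) for *Mcpt4* and chr2:126618629-126618928 (minus strand) for *Hdc*. Capitals mark the letters AGATAA or TGATAA on either strand, the core bound by GATA factors.
Cpa3: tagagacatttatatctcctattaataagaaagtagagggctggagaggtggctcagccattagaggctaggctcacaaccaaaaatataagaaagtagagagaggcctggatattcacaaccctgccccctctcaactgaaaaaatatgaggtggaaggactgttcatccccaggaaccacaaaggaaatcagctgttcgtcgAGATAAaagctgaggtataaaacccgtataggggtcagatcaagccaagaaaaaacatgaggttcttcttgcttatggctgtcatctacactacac
Cma1: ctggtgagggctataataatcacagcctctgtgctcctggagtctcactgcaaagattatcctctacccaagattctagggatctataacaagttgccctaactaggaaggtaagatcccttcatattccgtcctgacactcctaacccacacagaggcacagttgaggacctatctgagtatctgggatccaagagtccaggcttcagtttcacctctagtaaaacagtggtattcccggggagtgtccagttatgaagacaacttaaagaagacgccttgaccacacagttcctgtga
Mcpt4: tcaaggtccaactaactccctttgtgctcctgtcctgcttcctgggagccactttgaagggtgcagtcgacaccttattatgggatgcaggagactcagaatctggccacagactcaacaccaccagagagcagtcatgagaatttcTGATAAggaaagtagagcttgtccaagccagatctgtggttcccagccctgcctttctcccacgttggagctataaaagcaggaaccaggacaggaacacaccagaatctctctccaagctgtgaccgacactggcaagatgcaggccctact
Hdc: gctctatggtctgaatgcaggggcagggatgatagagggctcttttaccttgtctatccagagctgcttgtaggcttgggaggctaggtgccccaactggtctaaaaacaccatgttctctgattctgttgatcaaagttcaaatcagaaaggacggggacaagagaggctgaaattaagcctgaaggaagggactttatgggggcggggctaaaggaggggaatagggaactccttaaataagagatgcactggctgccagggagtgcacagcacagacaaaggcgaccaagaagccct
The match in *Cpa3* began at position -46 and that in *Mcpt4* at position -103 relative to the start, and the windows of *Cma1* and *Hdc* held none. A window was found for 7 of the 10 genes, without *Mcpt2*, *Tpsb2* and *Tpsab1*, and among the other windows those of *Fcer1a* and *Ms4a2* held a match and that of *Kit* did not. Of all 32817 windows in the table, 18.6% held these letters on either strand. A match is a string of letters, not evidence of binding, and its absence says only that the letters are not in this window.

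*Tpsab1* (Entrez 100503895, chr17:25343245-25345562), the gene of the tryptase mMCP-7, had the opposite direction to its neighbour *Tpsb2*. It was at 1.32, 0.155, 3.85 and 1.65 CPM in controls and at 0.621, 0.167, 0.0924 and 0.455 CPM in cKO uteri, from 4 to 108 and from 3 to 16 counts. Control replicate 2 was as low as the cKO libraries, and the other 3 controls were above all of them. The means of 1.74 ± 1.54 and 0.334 ± 0.247 CPM (SD, n = 4 each) gave a log2 fold change of -2.42 (SE 0.83), the widest error of the 8 genes.

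The share of *Tpsab1* among the tryptase counts sets both genes against each other within a library. *Tpsab1* supplied 41.2% of the tryptase counts in control replicate 1 (95% Wilson interval 32.1 to 50.9), 7.55% in replicate 2 (2.97 to 17.9), 45.2% in replicate 3 (39.0 to 51.5) and 27.4% in replicate 4 (21.9 to 33.7). In cKO replicates 1 to 4 the share was 5.16% (3.20 to 8.22), 4.17% (1.79 to 9.38), 1.63% (0.556 to 4.68) and 4.13% (2.43 to 6.93). The genotypes did not overlap, but the interval of control replicate 2 covered values of the cKO group, and these intervals cover counting error only. Within the controls alone the share ranged from 7.55% to 45.2%, with intervals of replicates 2 and 3 that did not overlap.

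In the reference annotation, which is of the strain C57BL/6J, *Tpsab1* is listed as a transcribed pseudogene, and C57BL/6 mice are known to lack the mMCP-7 protein. The mice of the study were of mixed background, and the alleles they carried at this locus were not analysed here. Beside the tryptases on chromosome 17, *Cacna1h* had a log2 fold change of 0.17 (edgeR adjusted p = 0.692), and *Prss34* one of 2.22 (SE 0.65, edgeR adjusted p = 0.0734) with each cKO library above each control. *Prss34* was over the filter of 0.2 CPM in all cKO libraries and, among the controls, in a single library. *Tpsg1*, too low to be tested, averaged 0.0137 CPM in controls and 0.103 CPM in the cKO group, and *Prss28* and *Prss29* were at 0 in all 8 libraries. No stretch of 50 bases was shared between the annotated transcripts of *Tpsab1* and *Tpsb2*, and the longest shared run was 39 bases.

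**Figure D2:**
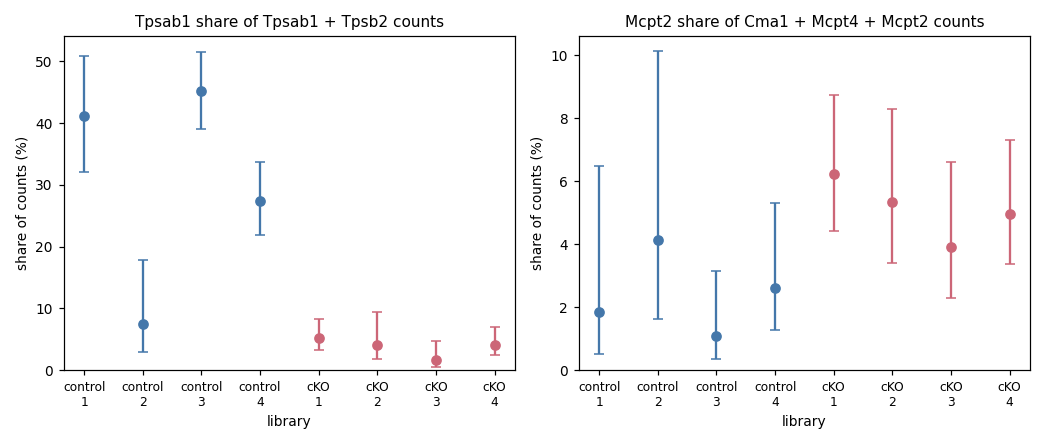
Share of counts (%, vertical axes) of *Tpsab1* among *Tpsab1* and *Tpsb2* counts and of *Mcpt2* among *Cma1*, *Mcpt4* and *Mcpt2* counts in each of the 8 libraries, with 95% Wilson intervals for counting error. The *Tpsab1* share is 7.55% to 45.2% in controls and 1.63% to 5.16% in cKO uteri, and the *Mcpt2* share is 1.09% to 4.12% and 3.93% to 6.25%.

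*Mcpt2* (Entrez 17225, chr14:56021584-56044635), the chymase gene of mucosal mast cells, had few counts and the largest positive fold change of the 8 genes tested, among which it counted only through its level in the cKO libraries. Control libraries held 2, 4, 3 and 7 counts and cKO libraries 31, 18, 13 and 24 counts, which are 0.0631, 0.155, 0.107 and 0.192 CPM against 1.20, 0.602, 0.400 and 0.841 CPM. Each cKO library was above each control library, and the control values lay around this limit of 3 counts per library. The means were 0.129 ± 0.0562 and 0.762 ± 0.345 CPM (SD, n = 4 each), with a log2 fold change of 2.48 (SE 0.45). Without any 1 of the cKO libraries, *Mcpt2* did not reach the filter on low counts and had no test.

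Relative to the other chymases, *Mcpt2* made up 1.85%, 4.12%, 1.09% and 2.62% of the counts of *Cma1*, *Mcpt4* and *Mcpt2* in control replicates 1 to 4 and 6.25%, 5.36%, 3.93% and 4.98% in cKO replicates 1 to 4. Control replicate 2 exceeded cKO replicate 3, so this share overlapped between genotypes although the level did not. *Mcpt1*, the other mucosal chymase gene, was at 0 in all controls and at 0 to 0.155 CPM in cKO uteri, and *Mcpt9*, which lies within the span annotated for *Mcpt2*, was at 0 in all 8 libraries. The transcripts of *Mcpt2* and *Mcpt1* shared a run of 49 bases and no window of 50 bases, so a short read could belong to either.

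The IgE receptor genes were near the limit of detection. *Fcer1a* (Entrez 14125, chr1:173221269-173227232), the subunit that binds IgE, had 1, 2, 1 and 2 counts in controls and 2, 2, 4 and 6 counts in cKO uteri, up to 0.210 CPM. *Ms4a2* (Entrez 14126, chr19:11615517-11623790), the signal-amplifying beta subunit, had 1, 0, 0 and 0 counts in controls and 1, 2, 3 and 4 counts in cKO uteri. All control libraries held 3 counts or fewer of either gene, and no fold change is given. Each cKO library lay above each control library for *Ms4a2*, although the lowest cKO and the highest control both rested on 1 count, and the libraries overlapped for *Fcer1a*. These subunits mark mast cells and basophils, and both genes were too low to be tested.

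*Kit* (Entrez 16590, chr5:75574987-75656722) was at 29.0, 36.5, 24.8 and 26.9 CPM in controls and at 27.4, 31.6, 31.0 and 23.9 CPM in cKO uteri. The libraries overlapped throughout, with means of 29.3 ± 5.10 and 28.5 ± 3.57 CPM (SD, n = 4 each) and a log2 fold change of -0.04 (SE 0.12). *Kit* followed another order of libraries than the proteases, being highest in control replicate 2, where the sum of the 4 proteases was lowest, and its r with their mean log2 level, genotype means removed, was -0.85 over the 8 libraries.

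*Kit* is also made by interstitial cells of Cajal, melanocytes and germ cells. *Ano1*, a channel of interstitial cells of Cajal that other uterine cells can also make, was at 249 to 268 CPM in control and 180 to 202 CPM in cKO libraries and fell with a log2 fold change of -0.40 (SE 0.06, edgeR adjusted p = 0.00118). *Etv1*, the other gene examined for these cells, overlapped between genotypes with a log2 fold change of -0.02 (SE 0.14, edgeR adjusted p = 0.946). Melanocyte markers summed to 1.61 to 2.14 CPM in control and 1.82 to 2.29 CPM in cKO libraries, with *Tyrp1* at 0 in all 8, and germ cell markers to 1.81 to 1.92 and 0.946 to 2.07 CPM. The part of these cells in the level of *Kit* was not tested.

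*Hdc* (Entrez 15186, chr2:126593659-126624025), the histidine decarboxylase gene, was at 63.0, 98.5, 45.6 and 35.6 CPM in controls and at 24.6, 21.4, 15.2 and 35.7 CPM in cKO uteri. Control replicate 4 and cKO replicate 4 were at nearly the same level, and the other 3 controls were above all cKO libraries. The means of 60.7 ± 27.6 and 24.3 ± 8.58 CPM (SD, n = 4 each) gave a log2 fold change of -1.32 (SE 0.39), opposite in sign to that of the 4 connective tissue proteases. Its r with their mean log2 level, genotype means removed, was -0.31. The control mean of *Hdc* lay far above that of each of these proteases, the highest of which was 3.95 ± 2.57 CPM for *Cpa3*. Which cells of the uterus made *Hdc* was not tested.

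Per kilobase of exon, the 10 genes could be ordered by level within the controls. *Hdc* led with 9.49 ± 4.33 CPM per kb, followed by *Cma1* (3.52 ± 1.70), *Kit* (3.29 ± 0.572), *Cpa3* (2.60 ± 1.70), *Tpsb2* (2.01 ± 0.954) and *Mcpt4* (1.91 ± 1.12), all as SD with n = 4. The neighbours from *Cma1* to *Mcpt4* differed by less than their spread. *Tpsab1* at 0.833 ± 0.738, *Mcpt2* at 0.122 ± 0.0530, and the IgE receptor genes *Fcer1a* and *Ms4a2* came last.

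In cKO uteri *Cma1* led with 7.61 CPM per kb, ahead of *Cpa3* at 5.51, *Tpsb2* at 4.93 and *Mcpt4* at 4.82, while *Hdc* was at 3.80 and *Kit* at 3.20. *Mcpt2* at 0.718 CPM per kb was then above *Tpsab1* at 0.160. The order of the first 6 therefore differed between the genotypes in means, with *Hdc* leading in control but below the 4 proteases in cKO uteri, although the spread of neighbours overlapped.

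Outside the 10 members, 43 further genes of mast cell granules, receptors, signalling, development and histamine handling were examined, of which 30 were tested. Of these 30, 1 rose and 2 fell with an adjusted p under 0.05 by edgeR, against 2.62% of all genes tested that rose, 2.71% that fell and 5.34% in all, 29 differed in mean by less than 2-fold, and the median log2 fold change was 0.05 with 18 higher in cKO. DESeq2 placed 4 of them under an adjusted p of 0.05, with 9.25% of all genes, and limma-voom 3, with 4.98%. An unadjusted p under 0.05 by edgeR was reached by 2 granule and mediator genes, 2 other receptor genes and 3 transcription factor genes, as by 21.2% of all genes tested. The 13 genes that were not tested reached at most 0.426 CPM in a library.

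**Figure D3:**
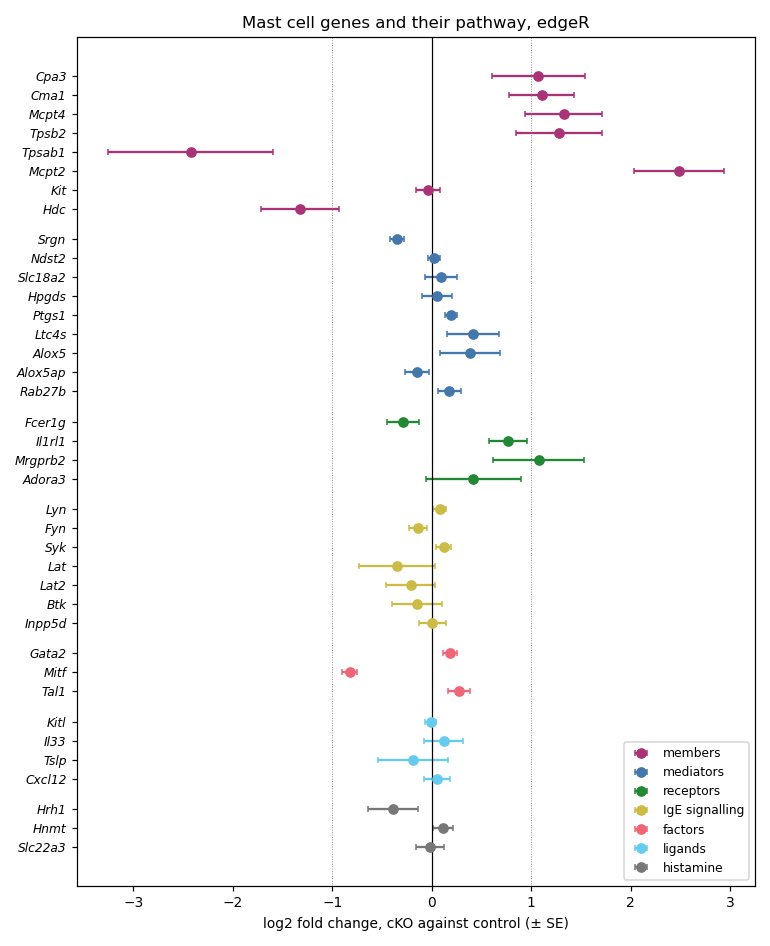
Log2 fold changes of cKO against control uteri (horizontal axis, positive values higher in cKO, dotted lines at 2-fold) with standard errors from edgeR for the 8 mast cell genes tested and the 30 tested genes of the pathway. Of the pathway genes, *Mitf* is at -0.83, *Srgn* at -0.35, *Il1rl1* at 0.76 and *Mrgprb2* at 1.07, and the others lie between -0.39 and 0.42. The members spread from -2.42 to 2.48.

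Among the 9 granule and lipid mediator genes, 1 passed an adjusted p of 0.05 by edgeR and by limma-voom and 2 by DESeq2, which added the cyclooxygenase gene *Ptgs1*. *Ptgs1* had a log2 fold change of 0.19 (SE 0.06, edgeR adjusted p = 0.0768) with each cKO library above each control. *Srgn*, the serglycin core protein that holds the proteases in the granule and the most abundant gene of this list, was at 99.4, 97.4, 102 and 89.0 CPM in controls and 68.0, 84.0, 79.8 and 72.5 CPM in cKO uteri. It fell with a log2 fold change of -0.35 (SE 0.07, edgeR adjusted p = 0.0149), with no overlap. Serglycin is also made by other blood-derived and endothelial cells. Without control replicate 1 its adjusted p was 0.0589.

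Of the other receptors, *Il1rl1*, the receptor of interleukin 33, was at 2.49, 1.70, 3.28 and 2.61 CPM in controls and 4.74, 4.79, 3.63 and 4.03 CPM in cKO uteri. It rose with a log2 fold change of 0.76 (SE 0.19, edgeR adjusted p = 0.0371), all cKO libraries lying above all controls. This call was lost without any 1 of control replicates 1, 2 and 4 or cKO replicates 1, 2 and 3, with adjusted p from 0.0523 to 0.113. *Fcer1g*, the signalling subunit that the IgE receptor shares with other immune receptors, was the most abundant of this list over all 8 libraries, with a log2 fold change of -0.29 (edgeR adjusted p = 0.310).

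*Mrgprb2*, a receptor found on connective tissue mast cells, was at 0.0774 to 0.247 CPM in control and 0.185 to 0.427 CPM in cKO libraries, with a log2 fold change of 1.07 (SE 0.46, edgeR adjusted p = 0.198). The gene is outside the naming rule and is given because, of the 30 pathway genes tested, it was the 1 whose means differed by over 2-fold. Of the 7 genes of IgE receptor signalling, 0 passed an adjusted p of 0.05 by edgeR, DESeq2 or limma-voom, and 0 had an unadjusted p under 0.05 by edgeR. The most abundant, the kinase gene *Fyn*, had a log2 fold change of -0.14 (edgeR adjusted p = 0.381).

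Of the transcription factors, *Mitf*, which acts in mast cells, melanocytes and other cells, was at 57.3, 59.6, 65.6 and 58.3 CPM in controls and 30.2, 33.1, 36.2 and 36.2 CPM in cKO uteri. It fell with a log2 fold change of -0.83 (SE 0.07, edgeR adjusted p = 5.86e-05), and the genotypes were far apart relative to their spread. *Gata2*, the most abundant factor of the list, had a log2 fold change of 0.19 (edgeR adjusted p = 0.157) at a mean of 262 CPM in control uteri, a level far above that of any mast cell protease. Without cKO replicate 4, *Gata2* and the factor gene *Tal1* had an adjusted p under 0.05 by edgeR, and with all libraries *Tal1* had a log2 fold change of 0.27 (SE 0.11, edgeR adjusted p = 0.186).

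Of the growth and attracting factors, 0 of 4 tested genes had an adjusted p under 0.05 by edgeR, DESeq2 or limma-voom, and 0 had an unadjusted p under 0.05 by edgeR. *Kitl*, the ligand of KIT, was at 116 to 130 CPM in control and 115 to 129 CPM in cKO libraries, with a log2 fold change of -0.01 (edgeR adjusted p = 0.935). *Cxcl12*, the most abundant of the list, had one of 0.05 (edgeR adjusted p = 0.856). For histamine receptors and removal, 0 of 3 tested genes passed by any of these tools or at an unadjusted p under 0.05 by edgeR, and the most abundant, the histamine transporter gene *Slc22a3*, had a log2 fold change of -0.02 (edgeR adjusted p = 0.963). The 5 other mast cell protease genes were all too low to be tested, the most abundant being *Ctsg* in controls, at 0 to 0.116 CPM, and *Tpsg1* in cKO uteri, at 0.0335 to 0.140 CPM.

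Markers of other cells were compared because basophils share genes with mast cells. The basophil markers *Mcpt8*, *Prss34* and *Cd200r3* summed to 0.0631 to 0.659 CPM in control and 0.955 to 1.28 CPM in cKO libraries, and their ranges did not overlap. *Mcpt8*, the defining basophil protease gene, was at 0.0714 CPM or lower in every library. The part of basophils in the levels of the members was not tested.

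Macrophage markers summed to 159 to 222 CPM in control and 164 to 194 CPM in cKO libraries, and the leukocyte gene *Ptprc* was at 13.2, 14.8, 7.78 and 8.70 CPM in controls and 8.43, 8.57, 7.30 and 6.13 CPM in cKO uteri. Within a genotype both ran opposite to the proteases, which were lowest in control replicates 1 and 2 where *Ptprc* was highest. With genotype means removed, r with the mean log2 level of the connective tissue proteases was -0.82 for *Ptprc*. For the macrophage markers it lay between -0.84 and -0.32. The part of these cells in the levels of the members was not tested. NK cell markers summed to 2.64 to 5.08 CPM in control and 0.946 to 1.67 CPM in cKO libraries, a direction opposite to that of the connective tissue proteases. T cell markers summed to 1.59 to 4.06 CPM in control and 1.30 to 2.41 CPM in cKO libraries, with lower means in cKO for all 3 genes tested, of which *Cd3d* had no overlap (log2 fold change -1.46, SE 0.42, edgeR adjusted p = 0.0642). Neutrophil and myeloid precursor markers summed to 3.10 to 8.81 and 4.35 to 8.97 CPM, with higher means in cKO for all 5 genes tested. Of these, *Mpo* had no overlap (log2 fold change 1.29, SE 0.45, edgeR adjusted p = 0.119). With 0.0824 to 0.193 CPM in control and 0.246 to 0.544 CPM in cKO libraries, *Mpo* passed the filter of 0.2 CPM only through the cKO libraries. Eosinophil markers overlapped, with sums of 0.535 to 0.789 CPM in control and 0.420 to 1.41 CPM in cKO libraries.

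Some tissue markers did follow the proteases from mouse to mouse. Markers of the mesothelium, the outer lining of the uterus, summed to 91.2, 45.8, 120 and 132 CPM in controls and 121, 107, 79.4 and 111 CPM in cKO uteri. With genotype means removed, r with the mean log2 level of the 4 proteases over the 8 libraries was 0.82 for *Upk3b*, 0.71 for *Lrrn4* and 0.69 for *Msln*, 0.69 and 0.66 for the epithelial genes *Krt8* and *Epcam*, and -0.87 for *Vim*, a gene of mesenchymal cells. The part of this tissue make-up in the levels of the members was not tested.

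Fat and nerve hold mast cells in many organs, and their markers differed between these libraries. The fat marker *Adipoq* reached 11.7, 23.7 and 14.4 CPM in the first 3 cKO replicates and stayed at 0.0350 CPM in cKO replicate 4, against 0.0631 to 0.387 CPM in controls. The highest *Cma1* and *Cpa3* were found in cKO replicate 4, and the highest *Tpsb2*, *Mcpt4* and sum of the 4 proteases in cKO replicate 1. With cKO replicates 1 to 3 left out, the log2 fold change was 1.46 for *Cma1*, 1.46 for *Cpa3*, 1.39 for *Mcpt4* and 1.72 for *Tpsb2*, with 1 cKO library remaining. Under the same exclusion it was -1.93 for *Tpsab1*, -0.28 for *Kit* and -0.75 for *Hdc*, and *Mcpt2* did not reach the filter. Schwann cell markers summed to 7.25 to 9.44 CPM in control and 9.14 to 16.2 CPM in cKO libraries, and their gene *Sox10* rose with a log2 fold change of 0.92 (SE 0.23, edgeR adjusted p = 0.0407). The part of these tissues in the protease levels was not tested.

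**Figure D4:**
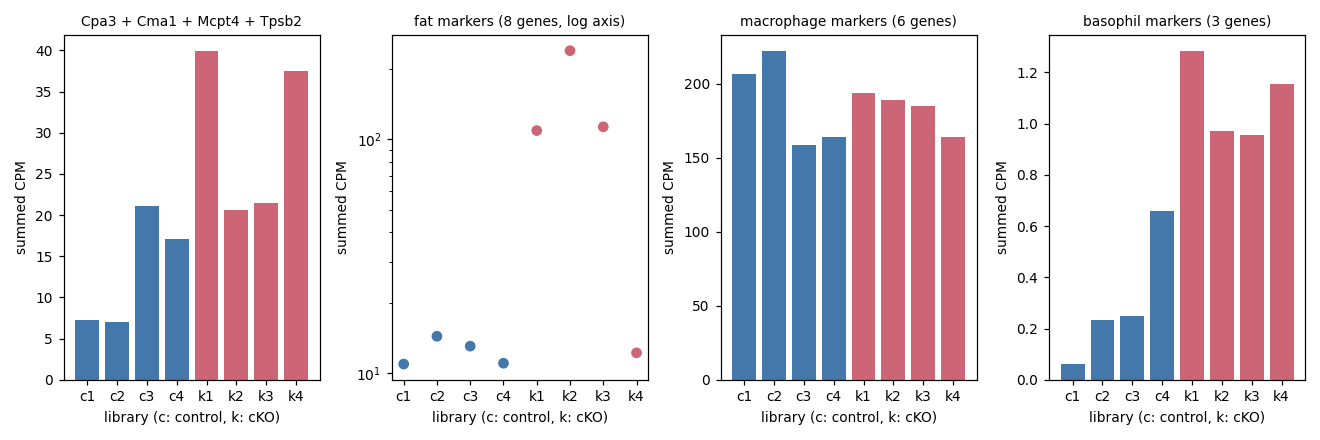
Summed CPM per library (c, control; k, cKO; digits, replicate) of the 4 connective tissue proteases and of fat, macrophage and basophil markers, with the fat markers on a log axis and the others as bars from 0. The protease sum is 39.9 and 37.5 CPM in cKO replicates 1 and 4, where the fat sum is 109 and 12.2 CPM, and macrophage markers lie between 159 and 222 CPM in all libraries.

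Other genes were ranked by how closely they followed the 4 connective tissue proteases, as r with their mean log2(CPM + 0.1) over the 8 libraries after removal of the genotype means. Among 14225 genes compared, 15 had an r over 0.95. The score rests on the split into lower and higher libraries within each genotype. How many genes would reach such an r by chance was not tested. The closest 5 were *Slit1* (0.98), *Zdhhc13* (0.98), *Gramd1b* (0.98), *Dhrs3* (0.98) and *Sv2c* (0.98). With the genotype means kept, r was 0.86 for *Slit1*, 0.75 for *Dhrs3* and 0.74 for *Sv2c*, but -0.33 for *Zdhhc13* and -0.15 for *Gramd1b*. By the same measure *Tpsab1* had an r of 0.85 and *Mcpt2* of 0.53, so *Tpsab1* followed the other proteases from mouse to mouse within a genotype while its mean lay on the other side between genotypes.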

How the data were processed

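Stranded mRNA libraries were made from 8 uteri. Per the labels, the authors used Trimmomatic, FastQC, HISAT2 (GRCm38) and featureCounts, and they deposited 1 file of raw counts by Entrez gene from every library. The annotation release, strand setting and treatment of reads shared between genes are not given in the sources used here, so counts of near-identical or overlapping genes carry that doubt. The authors' deposited edgeR results hold p-values, an F score per gene, and the fold change and mean level as log2 values. Only the gene symbols were taken from them. A deposited table of normalized counts was not used here.

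Software was edgeR 4.0.16 with DESeq2 1.42.0 and limma 3.58.1 under R 4.3.3. A gene needed more than 0.2 CPM in 4 or more libraries to enter edgeR's quasi-likelihood test (TMM factors, robust = TRUE, prior count 0.125) over all 8 libraries, with Benjamini-Hochberg adjustment over all 16658 genes. Standard errors (SE) were obtained as the absolute log2 fold change over the root of its F score. CPM per kb used the exon union of GENCODE M21, and coordinates came from a RefSeq table of GRCm38. Wilson intervals and the limit of 3 counts reflect counting error only.

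The members and all gene lists were chosen with earlier results of these data known. Genes named are all members, the listed pathway genes with an adjusted p under 0.05, the most abundant gene of each list, and the 5 genes most like the proteases. *Kitl*, *Mrgprb2*, *Ptgs1*, *Tal1*, the neighbours at the protease loci and single markers of other cells (*Ano1*, *Etv1*, *Tyrp1*, *Ptprc*, *Adipoq*, *Sox10*, *Cd3d*, *Mpo* and the basophil, mesothelial, epithelial, mesenchymal and uterine genes) are outside this rule and were chosen after their values were seen. Each mouse gave 1 library, and no same-group pair of libraries agreed within sampling noise (chi-square per gene 7.44 to 21.3). The alternatives were other normalizations, filters, tests and prior counts, a replicate block, and leaving out libraries. No batch is given in the labels. The qRT-PCR and imaging data of the study were not analysed here.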

Additional observations from a re-analysis of the deposited data

Results flagged for a closer look

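Of 48 groups of 4 libraries examined, 2 held a library far from the other 3, and chance gives about 1 in 20. *Ms4a2* was at 0.0315 CPM in control replicate 1, which is a single count, and at 0 in the other controls. *Gata2* was at 253.8 CPM in cKO replicate 4 and at 309.1 to 315.3 CPM in the other cKO libraries, which is within the range of the controls.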

How the results depend on the processing

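Every log2 fold change of the 8 members tested kept its sign under the alternatives that gave one, apart from *Kit*, which ranged from -0.28 (cKO replicates 1 to 3 left out together, chosen after seeing the data) to 0.08. The ranges were 0.81 to 1.46 for *Cpa3*, 0.89 to 1.46 for *Cma1*, 1.06 to 1.74 for *Mcpt4*, 1.05 to 1.72 for *Tpsb2*, 2.05 to 2.78 for *Mcpt2*, -2.89 to -1.72 for *Tpsab1* and -1.57 to -0.75 for *Hdc*. Leaving out 1 library gave 134 to 320 genes past both thresholds against 217 with all (134 without control replicate 1, 135 without cKO replicate 1, 137 without cKO replicate 2), a median of the members of 0.87 to 1.40, and 1 (without control replicate 1) to 5 (without cKO replicate 4, adding *Gata2* and *Tal1*) pathway genes with an adjusted p under 0.05. With all libraries, 3 pathway genes had an adjusted p under 0.05 by edgeR, as did 5.34% of all genes tested. With cKO replicates 1 to 3 left out together, 20 genes were past both thresholds, with the single cKO library assumed to vary like the controls. Under the same exclusion 1 pathway gene, *Mitf*, had an adjusted p under 0.05, but its log2 fold change of -0.72 was under 2-fold.

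No member was past both thresholds with a CPM minimum of 0.5, under which *Mcpt2* was not tested, and 173 of 15393 genes tested were. *Mcpt2* and *Tpsab1* were past both thresholds without control replicate 2, as were 210 of 16562 genes tested, and *Cma1*, *Mcpt2* and *Mcpt4* without control replicate 3, as were 156 of 16535. The replicate numbers did not pair the libraries (correlations of same-numbered deviations from -0.00 to 0.19), and the fit with the number as a block gave 253 genes, 3 pathway genes and a member median of 1.19. Depth limits *Fcer1a*, *Ms4a2* and, in controls, *Mcpt2*.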
